A study of Rattus norvegicus with 9 samples.

Results

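The Dlk1-Dio3 cluster of imprinted miRNAs was followed across 9 small RNA libraries from rat aortic vascular smooth muscle cells in culture. Its members were taken by name and not by a value. They were the mature arms of 45 miRNA names known from the locus, and the table held 78 arms of 42 of these names among its 762 mature rat miRNAs. The names miR-432, miR-654 and miR-889 matched no entry. Of the 78 arms 34 had a count in some library, and only miR-379-5p was abundant enough for the filtered test, which took in 304 of the 502 miRNAs with a count.

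There were 3 groups of 3 libraries. Differentiated cells carry the treatment label "None". PDGF-BB cells were given the B-chain dimer of platelet-derived growth factor, a smooth muscle mitogen, at 30 ng/ml for 24 h, and their titles call them de-differentiated. H3K4me2-edited cells, also titled de-differentiated, were transduced with a lentivirus expressing Myocardin-F-LSD1. In smooth muscle myocardin drives contractile genes together with serum response factor, and LSD1 removes methyl groups from lysine 4 of histone H3. All cells were grown in DMEM/F12 with serum. The shared protocol text gives 24 h without serum before treatment and does not say whether this held for the differentiated and edited cells. No transduced control entered the comparisons, so the construct and the transduction cannot be told apart. Whether replicates were separate cultures is not stated, so the p-values reflect only spread among these libraries, possibly technical.

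The locus is imprinted. Dlk1, Rtl1 and Dio3 are expressed from the paternal chromosome, while the noncoding RNA Meg3 and the long noncoding transcripts downstream of it, from which the miRNAs are cut, are expressed from the maternal chromosome. The miRNAs are abundant in embryo, placenta and brain and fall after birth in many tissues. In mice, miR-127 and miR-136 lie antisense to Rtl1 and are fully complementary to its transcript. Inhibition of several members of the miR-379/miR-410 block, among them miR-494, improves blood flow recovery after ischaemia in mice.

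In the RefSeq annotation of the rat build GRCr8, the 42 names lay on chromosome 6 in 2 stretches. The counts themselves were made on the build Rnor_6.0, and the deposited table holds no coordinates. The stretch from miR-770 to miR-370 covered chr6:134298084-134354569, or 56.5 kb, and the miR-379/miR-410 block covered chr6:134543445-134579838, or 36.4 kb. The gap between them was 188.9 kb. RefSeq placed 39 of the 42 names by a hairpin and 3 (miR-376b, miR-485 and miR-665) by a mature arm.

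The 11 members with the most counts are shown first, since the comparisons turn on them. They are the first 10 and a tie for the last place, and they held 78.4% of the cluster's counts. The sequences are RefSeq mature sequences (GRCr8, plus strand), written 5′ to 3′, with the seed (bases 2 to 8, which pairs with targets) in capitals.
miR-379-5p: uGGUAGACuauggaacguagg
miR-411-5p: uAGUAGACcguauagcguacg
miR-382-5p: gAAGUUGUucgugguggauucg
miR-134-5p: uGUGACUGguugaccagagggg
miR-494-3p: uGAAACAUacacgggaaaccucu
miR-409a-3p: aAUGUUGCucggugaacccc
miR-300-3p: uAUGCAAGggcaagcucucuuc
miR-381-3p: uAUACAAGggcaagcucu
miR-369-3p: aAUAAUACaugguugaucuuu
miR-376b-3p: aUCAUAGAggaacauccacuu
miR-541-5p: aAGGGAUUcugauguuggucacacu

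No 2 of these 11 shared a seed. The seeds of miR-379-5p and miR-411-5p differed at a single base, G2A, counted from 1 at the 5′ end with the base of miR-379-5p first. miR-300-3p and miR-381-3p differed over their 18 shared positions only by G4A, which lies in the seed. The less abundant miR-376a-3p differed from miR-376b-3p at 3 of 21 bases (G4A, A13C and G20U). The sources used here do not give how the authors' counting separated such close sequences, so the split between miR-300-3p and miR-381-3p and among the miR-376 arms is uncertain. Among RefSeq rat miRNAs with a mature sequence, 10 of the 11 seeds belonged to no other miRNA. The seed of miR-381-3p was shared with miR-539-3p, itself a member, which had 4 counts in all.

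The cluster was rare in these cells. Over the 9 libraries it collected 501 counts, of which miR-379-5p had 91, which placed that arm at rank 306 of the 762 miRNAs. Library totals ran from 1783409 to 11392178 counts, so the floor of 3 counts, the most that a library with a count of 0 allows, lay between 0.205 and 1.99 CPM. CPM is the usual share of the library's counts, here with library totals adjusted for composition by TMM factors unless called unadjusted. Only counting error enters the intervals and floors. The smooth muscle markers miR-143 and miR-145 were abundant, together at 214827 to 251377 CPM in differentiated libraries, 133153 to 171182 after PDGF-BB and 37105 to 63112 after editing. Of 10 neuronal marker arms 7 had a count, and their sums overlapped among differentiated (719 to 852 CPM), PDGF-BB (778 to 851) and edited libraries (837 to 1034). Of the miRNAs on this list, miR-124 had 0 counts. Endothelial arms summed to 1760 to 2145, 1791 to 1895 and 2905 to 3346 CPM in the same order of groups, blood arms to 25.9 to 35.7, 21.4 to 29.9 and 17.997 to 25.2, epithelial arms to 74.3 to 103, 36.2 to 50.0 and 20.8 to 42.1, and skeletal and cardiac muscle arms to 94.8 to 131, 55.8 to 94.0 and 66.2 to 102. The counted arms were 3 of 3, 6 of 8, 10 of 10 and 8 of 14 in these lists. Their part in the results below was not tested. In bulk RNA, fewer cells that express a miRNA and less of it per cell cannot be told apart.

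Nearly all of the signal came from the distal stretch. The miR-379/miR-410 block held 484 of the 501 counts (96.6%), from 32 of its 59 arms and 24 of its 31 names. Antisense to Rtl1, miR-127-3p had 10 counts and miR-136-3p had 7, while miR-431, miR-433 and miR-434 had none. Neither miR-770 inside Meg3, nor miR-493, miR-337 and miR-665 between Meg3 and Rtl1, nor miR-341 and miR-370 had a count. Within the block miR-495, miR-377, miR-410, miR-668, miR-758, miR-299b and miR-409b were also at 0. These zeros set limits at this depth and do not show absence.

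**Figure D1:**
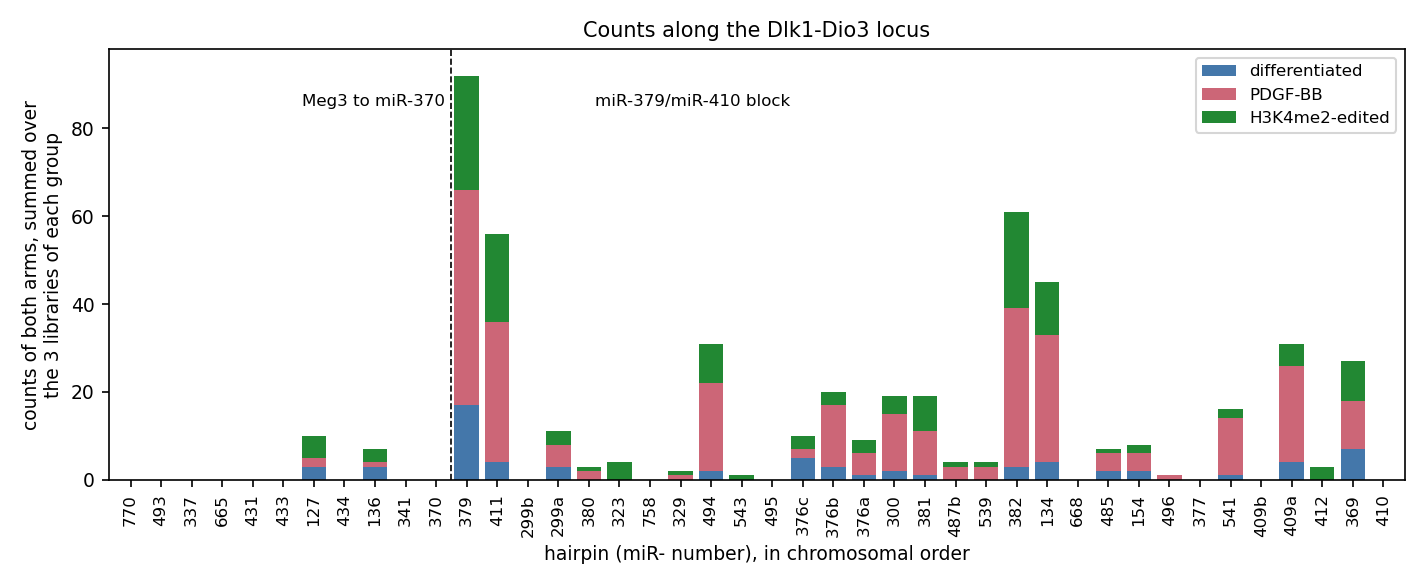
Counts of both arms of each name (vertical axis, linear, summed over the 3 libraries of each group and stacked) against its order along chromosome 6 (horizontal axis); the dashed line marks the gap between the stretch from Meg3 to miR-370 and the miR-379/miR-410 block. Left of the line only miR-127 and miR-136 have counts (17 in all), and right of it the highest bars are miR-379 (92), miR-382 (61) and miR-411 (56).

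The abundant names lay in separate places along the block, some as adjacent pairs. Counts peaked at miR-379 and miR-411, at the start of the block, and again at miR-382 and miR-134, with miR-494 between them and miR-409a and miR-369 near the end. For the 14 names with at least 10 counts, the more abundant arm was 5p in 6 and 3p in 8. miR-379 gave 91 counts from its 5p arm and 1 from its 3p arm, so 98.9% were 5p (95% exact Clopper-Pearson interval 94.1% to 99.97%). miR-411, miR-134 and miR-541 were counted from the 5p arm only, and miR-494, miR-300 and miR-381 from the 3p arm only. The least one-sided was miR-369, with 10 counts of 5p and 17 of 3p (63.0% 3p, interval 42.4% to 80.6%).

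Summed over all members, the cluster was highest after PDGF-BB. Differentiated replicates 1, 2 and 3 had 14, 34 and 19 cluster counts, PDGF-BB replicates had 76, 55 and 151, and edited replicates had 60, 52 and 40. As levels these were 9.27, 9.68 and 10.3 CPM for differentiated replicates, 42.0, 22.2 and 41.1 for PDGF-BB replicates, and 16.6, 3.54 and 4.73 for edited replicates. The 3 PDGF-BB libraries all lay above the other 6, and the edited libraries fell on both sides of the differentiated ones. Mean levels were 9.74 ± 0.509 CPM (SD, n = 3) for differentiated cells, 35.1 ± 11.2 for PDGF-BB and 8.29 ± 7.22 for edited cells. The PDGF-BB mean was 3.60 times the differentiated mean and 4.23 times the edited mean. Since the members were chosen with earlier results known, the sums carry no test.

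Edited replicate 1 stood apart from its group. Without it the edited mean was 4.14 CPM. Its unadjusted level, 19.1 CPM (95% exact Clopper-Pearson interval 14.5 to 24.5), did not overlap in its interval with edited replicate 2 (4.56, 3.41 to 5.99) or 3 (5.43, 3.88 to 7.40). PDGF-BB replicate 2, at 20.8 (15.7 to 27.1), lay below PDGF-BB replicates 1 (38.3, 30.2 to 48.0) and 3 (42.3, 35.8 to 49.6) and close to edited replicate 1. The smooth muscle markers also summed higher in edited replicate 1 (63112 CPM) than in replicate 2 (47535) or 3 (37105) of that group. Blood arms were highest there too (25.2 CPM), skeletal and cardiac muscle arms lay between the others (91.1), and endothelial (2905), neuronal (837) and epithelial arms (20.8) were lowest. The part of these markers in the result was not tested. Edited against differentiated depended on the scaling. With library totals in place of TMM the edited mean was 9.68 and the differentiated mean 8.52 CPM, the opposite order.

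Without miR-379-5p, the most abundant arm, the means were 7.07, 28.7 and 6.93 CPM in differentiated, PDGF-BB and edited cells, so PDGF-BB cells were highest without it as well. The 5p arms summed to 5.64 ± 0.746, 22.3 ± 7.44 and 4.80 ± 4.02 CPM, and the 3p arms to 4.10 ± 0.400, 12.8 ± 5.16 and 3.49 ± 3.21, in the same order of groups. The members outside the miR-379/miR-410 block were not highest after PDGF-BB, with 1.04 ± 0.994, 0.453 ± 0.412 and 0.321 ± 0.287 CPM, on 6, 3 and 8 counts.

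More members were counted in each PDGF-BB library than in any differentiated library, also at equal depth. Members with a count numbered 9, 18 and 8 in differentiated replicates 1 to 3, 19, 20 and 23 in PDGF-BB, and 23, 20 and 14 in edited libraries. Thinned by calculation to the smallest library total, the expected numbers were 9, 10.9 and 7.16 in differentiated, 18.1, 16.1 and 18.98 in PDGF-BB, and 17.1, 6.41 and 6.35 in edited libraries. Edited replicate 2, the deepest library, went from 20 members at its own depth to 6.41 at the common one. At the common depth edited replicate 1 lay within the range of the PDGF-BB libraries. All miRNAs with a count numbered 381, 425 and 393 in differentiated and 403, 416 and 422 in PDGF-BB libraries. Edited libraries had 425, 437 and 420. Matching numbers of all miRNAs at the common depth were not computed, so the member numbers are a description only.

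**Figure D2:**
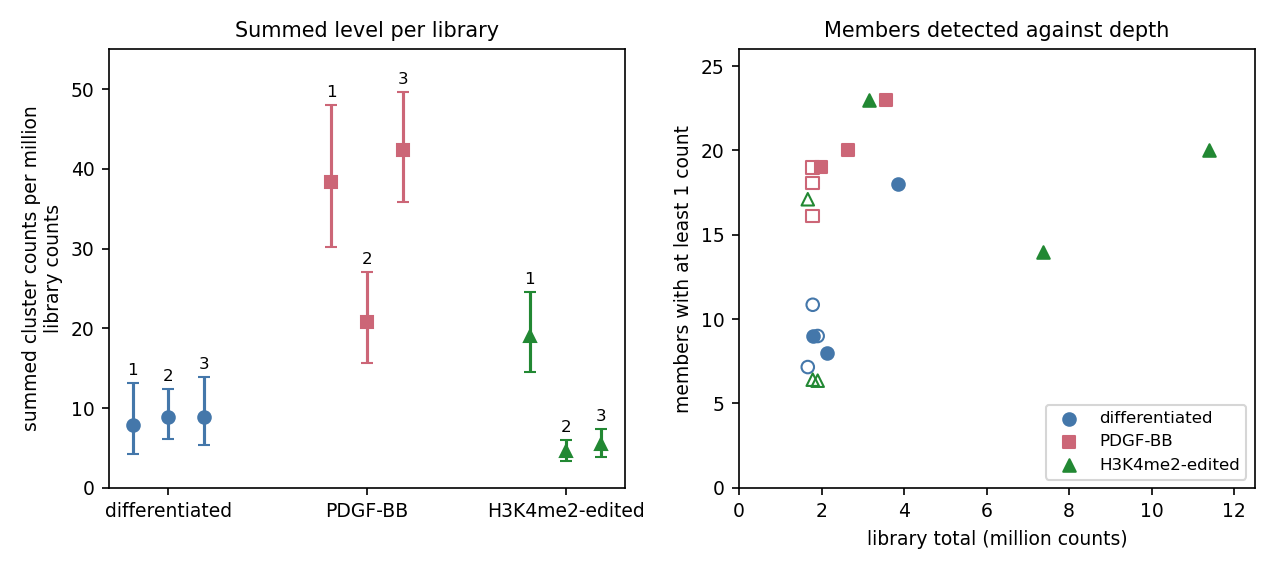
Left, summed cluster counts as unadjusted CPM for each library (points, replicate numbers above) with 95% exact binomial intervals; right, members with at least 1 count against the library total, filled symbols the observed numbers and open symbols those calculated for the smallest total (drawn there, slightly offset sideways). PDGF-BB libraries sit at 20.8 to 42.3 on the left, against 7.85 to 8.88 in differentiated libraries, and edited replicate 1 (19.1) lies apart from edited replicates 2 and 3.

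miR-379-5p, the first miRNA of the block, had 3, 6 and 8 counts in differentiated replicates, 17, 10 and 21 after PDGF-BB and 9, 8 and 9 in edited replicates. Its levels were 1.99, 1.71 and 4.33 CPM for the differentiated replicates, 9.40, 4.03 and 5.72 for PDGF-BB and 2.49, 0.545 and 1.06 for edited replicates. Every PDGF-BB library was above every edited library, while differentiated replicate 3 lay above PDGF-BB replicate 2. In the filtered edgeR fit it fell in edited against PDGF-BB cells, with a log2 fold change of −2.48 ± 0.55 (SE, edgeR adjusted p = 0.00399), in a comparison where 30.9% of the 304 tested miRNAs were lower. It did not pass in PDGF-BB against differentiated cells (1.27 ± 0.60, edgeR adjusted p = 0.221), where 7.24% were higher, nor in edited against differentiated cells (−1.21 ± 0.67, edgeR adjusted p = 0.140), where 27% were lower. Without edited replicate 1 the last of these passed (−1.69, edgeR adjusted p = 0.0303). The arm met the filter through the 3 PDGF-BB libraries and differentiated replicate 3, being over the minimum of 3.18 unadjusted CPM in no edited library, so its presence in the filtered test depended on the group where it was high.

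The other members were below the filter, so they were fitted again with every miRNA that had a count. The 3 comparisons share groups, so their values stand side by side and are not independent of each other. In edited against PDGF-BB cells, 10 of the 34 members (29.4%) passed, all lower, against 19.5% of the 502 miRNAs in that direction. Of the 33 members under the filter 9 passed (27.3%), against 13.1% of the 198 miRNAs under it. In PDGF-BB against differentiated cells 1 member rose (2.94%), against 3.78% of all. This was miR-382-5p, under the filter (3.03% of the 33 members there). It was also the only miRNA of the 198 under the filter to rise (0.505%), so that share holds no other miRNA. In edited against differentiated cells 1 fell (2.94%), against 15.5% of all. Under the filter this was 3.03% of members, against 10.1% of miRNAs. Shares of all miRNAs and of those under the filter include the members. At an unadjusted p under 0.05 there were 11, 9 and 2 of the 34 members in the same order, in either direction, against 44.6%, 17.5% and 44.2% of all 502 miRNAs. The median log2 fold change of the 34 members was −2.04 in edited against PDGF-BB, 1.85 in PDGF-BB against differentiated and −0.055 in edited against differentiated cells, where the medians of all 502 were −0.020, 0.039 and 0.0074. With members listed at 0 in a group set at their bound, and those with 3 or fewer counts in both groups left out, the medians were −2.42 over 18, 2.16 over 16 and −0.87 over 14 members. The same medians over all such miRNAs were −0.036, 0.070 and −0.0022. A member was kept here if either group held more than 3 counts. In PDGF-BB against differentiated cells most members were kept through their PDGF-BB counts alone, which favours a rise. These medians are therefore a description only.

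Libraries of 2 groups that do not overlap gave a second view. Every PDGF-BB library was above every differentiated library for 8 of the 34 members (23.5%), against 13.9% of all miRNAs with a count. All 8 were among the 33 members under the filter (24.2%). The share of all miRNAs under the filter was 15 of 198 (7.58%), and these 15 include the 8. No member showed the opposite order, against 11.6% of all miRNAs with a count. A member with a count of 0 in any differentiated library could not show it, which held for most of the 34 members. The lack of the opposite order is therefore no result about them. Every edited library was below every PDGF-BB library for 10 members (29.4%), close to the 26.9% of all miRNAs. Under the filter this held for 9 of 33 members (27.3%), against 35 of 198 miRNAs (17.7%), members included. Only miR-323-3p was above (2.94%), against 18.7%. Its edited levels (0.068 to 0.554 CPM) lay under the floors of the PDGF-BB libraries (0.817 to 1.66 CPM), so the counts of 0 there do not settle the order. For edited against differentiated cells 3 members were below (8.82%, against 23.9% of all), which were miR-127-3p, miR-369-5p and miR-409a-3p. All 3 were under the filter (9.09% of members there, against 11.6% of miRNAs). Those above were miR-323-3p and miR-382-3p (5.88%, against 22.5% of all). Both had 0 counts in the differentiated libraries, whose floors (0.854 to 1.99 CPM) lay over their edited levels (0.068 to 0.554 CPM). Their order is therefore not settled. Nor could a member with a count of 0 in any differentiated library lie below that group. The low shares therefore do not show that edited and differentiated cells were alike.

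**Figure D3:**
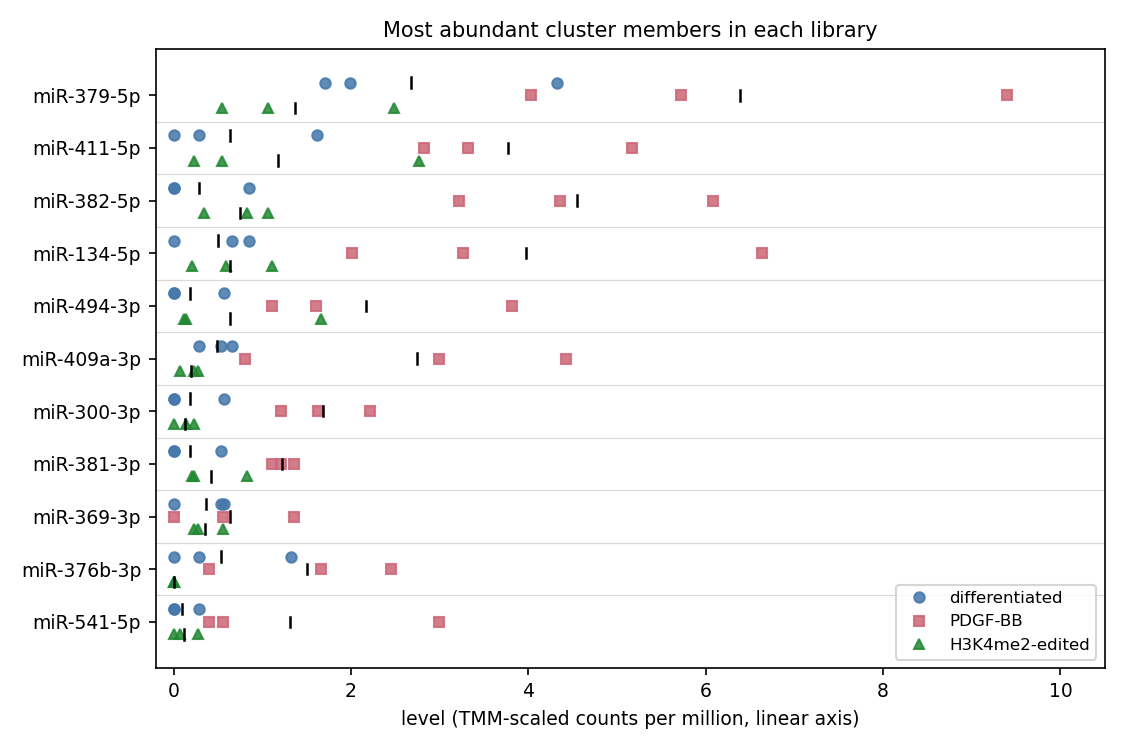
TMM-adjusted CPM (horizontal axis, linear) of the 11 most abundant members in each library, with a row per member and the 3 groups offset within it; black ticks are group means. PDGF-BB squares lie furthest right for most members, with miR-369-3p mixed among the groups and all 3 edited libraries of miR-376b-3p at 0.

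miR-411-5p, the neighbour of miR-379 and a miRNA whose seed is known to undergo A-to-I editing, had 0, 1 and 3 counts in differentiated replicates, 6, 7 and 19 after PDGF-BB and 10, 8 and 2 in edited replicates. Its means were 0.636 ± 0.867, 3.77 ± 1.24 and 1.18 ± 1.38 CPM. PDGF-BB libraries (2.82 to 5.17 CPM) were above the others, edited replicate 1 (2.77) only just. It fell in edited against PDGF-BB cells (−2.06 ± 0.67, edgeR adjusted p = 0.0220 in the fit without a filter), a call lost without PDGF-BB replicate 3 or edited replicate 2 or 3. PDGF-BB against differentiated did not pass (2.68 ± 0.92, edgeR adjusted p = 0.111).

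miR-382-5p was the only 1 of the 34 members that passed in both comparisons of PDGF-BB cells. It had 0, 3 and 0 counts in differentiated replicates, 11, 8 and 16 after PDGF-BB and 3, 5 and 9 in edited replicates. The PDGF-BB libraries, at 3.22 to 6.08 CPM, overlapped neither the differentiated (0 to 0.854) nor the edited ones (0.341 to 1.06). It rose in PDGF-BB against differentiated cells by 3.31 ± 0.77 on the log2 scale (edgeR adjusted p = 0.0163) and fell in edited against PDGF-BB cells (−2.56 ± 0.55, edgeR adjusted p = 0.00124). On pooled counts, 35 against 3, PDGF-BB was 10.1 times differentiated, with a 95% counting interval of 3.17 to 51.2. Its rise kept its call in 5 of 9 fits that leave out 1 library and lost it without differentiated replicates 1 or 3 or PDGF-BB replicates 1 or 3.

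miR-134-5p, which restrains Limk1 translation in dendrites of rat neurons and lies next to miR-382, had 1, 3 and 0 counts in differentiated replicates, 12, 5 and 12 after PDGF-BB and 4, 3 and 5 in edited replicates. Means were 0.505 ± 0.448, 3.97 ± 2.39 and 0.634 ± 0.453 CPM, and the PDGF-BB libraries overlapped no other. It fell in edited against PDGF-BB cells (−2.77 ± 0.64, edgeR adjusted p = 0.00209). Against differentiated cells the PDGF-BB difference did not pass (2.66 ± 0.81, edgeR adjusted p = 0.0711).

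miR-409a-3p had 1 count in each differentiated library, 8, 2 and 11 in PDGF-BB and 1, 1 and 2 in edited libraries. All PDGF-BB levels (0.806 to 4.42 CPM) were above the differentiated (0.285 to 0.662) and the edited ones (0.068 to 0.277). It fell in edited against PDGF-BB cells (−3.78 ± 0.73, edgeR adjusted p = 5.5e-04), with the smallest adjusted p among the members there. PDGF-BB against differentiated did not pass (2.52 ± 0.83, edgeR adjusted p = 0.0994), with a pooled ratio of 6.04 (95% counting interval 1.804 to 31.6).

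miR-494-3p had 0, 2 and 0 counts in differentiated replicates, 2, 4 and 14 after PDGF-BB and 6, 2 and 1 in edited replicates. Edited replicate 1, at 1.66 CPM, lay within the PDGF-BB range of 1.11 to 3.81, and edited replicates 2 and 3 were at 0.136 and 0.118. It fell in edited against PDGF-BB cells (−2.48 ± 0.82, edgeR adjusted p = 0.0230), a call also lost without PDGF-BB replicate 3 or edited replicate 2 or 3. By observed level PDGF-BB was above differentiated in every library without passing (2.96 ± 1.15, edgeR adjusted p = 0.192), with a pooled ratio of 8.63 (95% counting interval 2.10 to 76.2). Differentiated replicate 1, at 0 counts, had a floor of 1.99 CPM, within the PDGF-BB range.

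The near-identical miR-300-3p and miR-381-3p, printed above, had 19 counts each. miR-300-3p had 0, 2 and 0 counts in differentiated replicates, 4, 3 and 6 after PDGF-BB and 0, 2 and 2 in edited replicates, and miR-381-3p had 0, 0 and 1, then 2, 3 and 5, then 3, 3 and 2. By observed level both were higher in every PDGF-BB library (1.21 to 2.21 and 1.11 to 1.36 CPM) than in any other. Differentiated replicate 1 had 0 counts of both, with a floor of 1.99 CPM, so its place below PDGF-BB is not settled. miR-300-3p fell in edited against PDGF-BB cells (−3.13 ± 0.77, edgeR adjusted p = 0.00365). miR-381-3p did not pass there (−1.79 ± 0.75, edgeR adjusted p = 0.0717). Neither passed in PDGF-BB against differentiated cells (2.41 ± 0.95 and 2.87 ± 1.16, edgeR adjusted p = 0.201 and 0.216). Their pooled ratios there were 5.61 (95% counting interval 1.27 to 51.2) and 8.63 (1.23 to 375), on 2 and 1 differentiated counts.

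miR-376b-3p, from a family whose seed is edited in brain, had 2, 1 and 0 counts in differentiated, 3, 1 and 9 in PDGF-BB and 0 in each edited library. Against a floor of 3 counts over the edited libraries together, the pooled PDGF-BB level was at least 14.6-fold higher, which takes the 13 PDGF-BB counts as exact. With counting error in both groups the lower 95% limit of the ratio was 10.2. It passed in edited against PDGF-BB cells (edgeR adjusted p = 0.00132) and not in edited against differentiated cells (edgeR adjusted p = 0.0587). Its relatives miR-376c-3p, with 5 of its 10 counts in differentiated replicate 2, and miR-376a-3p, with 4 of its 9 in PDGF-BB replicate 3, passed in no comparison.

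miR-541-5p rested on a single library. Of its 13 PDGF-BB counts 11 were in replicate 3, beside 1 each in replicates 1 and 2, 0, 1 and 0 in differentiated and 1, 1 and 0 in edited libraries. It passed in edited against PDGF-BB cells (−3.83 ± 0.99, edgeR adjusted p = 0.00487), with a pooled PDGF-BB level 21.8 times the edited one (95% counting interval 4.94 to 199), and lost the call without PDGF-BB replicate 3. PDGF-BB against differentiated (3.20 ± 1.27, edgeR adjusted p = 0.201) did not pass, with a pooled ratio of 11.2 (1.69 to 477).

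The 2 arms of miR-369 were both counted, and the difference between them was not tested. miR-369-3p, which in serum-starved human cells activates translation of the TNF transcript, had 0, 2 and 1 counts in differentiated replicates, 1, 0 and 5 after PDGF-BB and 2, 4 and 2 in edited replicates. Its groups overlapped and it passed in no comparison. miR-369-5p had 2, 1 and 1 counts in differentiated replicates, 2, 1 and 2 after PDGF-BB and 0, 1 and 0 in edited replicates. Its single edited count lies in the deepest library. It passed in edited against differentiated (−3.17 ± 1.19, edgeR adjusted p = 0.0447) and against PDGF-BB cells (−3.26 ± 1.12, edgeR adjusted p = 0.0281), calls kept in 1 and 5 of 9 fits without 1 library. The first did not pass with library totals (−2.89, edgeR adjusted p = 0.0637). Of the fits without 1 library, it was kept only in that without differentiated replicate 2, and the second was lost without PDGF-BB replicate 1 or 3 or edited replicate 2 or 3. On pooled counts its edited level was 0.0643 times the differentiated level (95% counting interval 0.00130 to 0.649) and 0.0596 times the PDGF-BB level (0.00126 to 0.532).

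Of the 10 falls in edited against PDGF-BB cells, 6 kept their call in each of the 9 fits without 1 library. These were miR-134-5p, miR-300-3p, miR-376b-3p, miR-379-5p, miR-382-5p and miR-409a-3p. Without edited replicate 1 the count of members lower was 14, the 10 among them, and without PDGF-BB replicate 3 it was 6. It was 7 without edited replicate 2 or 3. With library totals in place of TMM the same 10 members passed, and with DESeq2 it was 8, without miR-411-5p (−1.77, DESeq2 adjusted p = 0.116) and miR-494-3p (−1.95, DESeq2 adjusted p = 0.199).

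**Figure D4:**
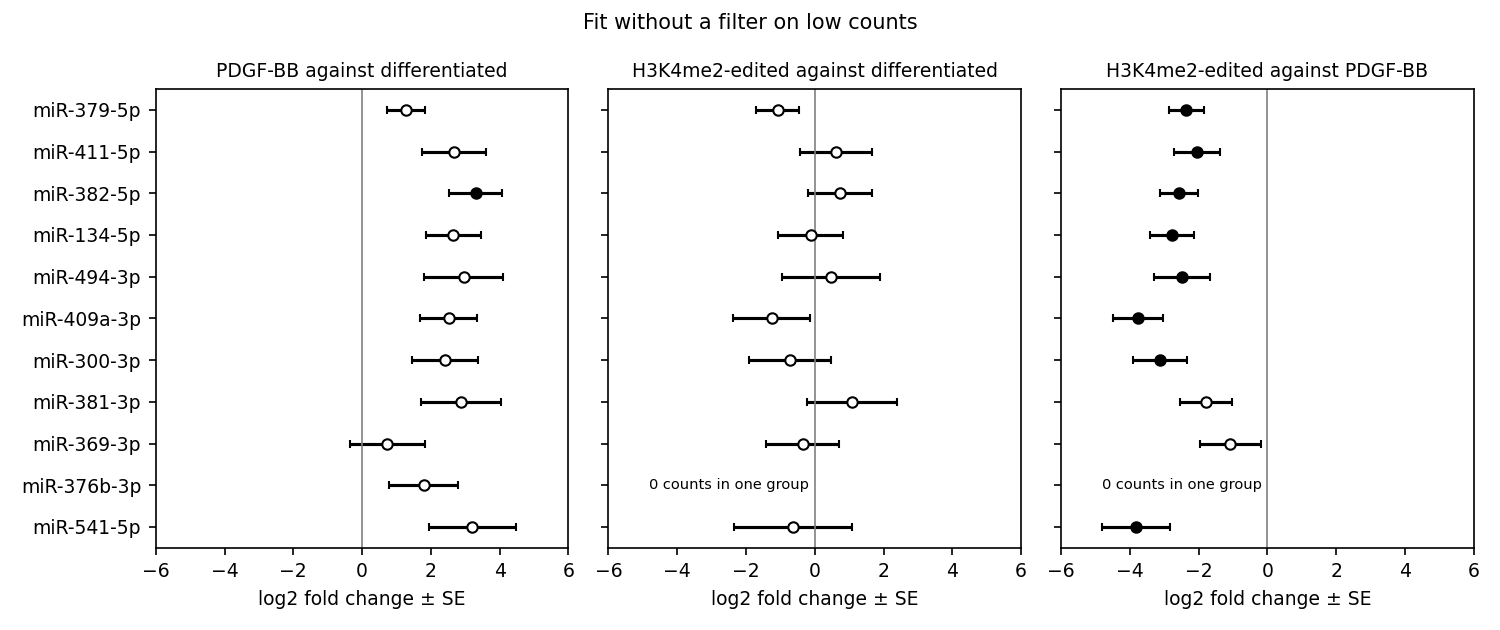
Log2 fold changes ± SE (horizontal axis) of the 11 most abundant members in the edgeR fit without a filter on low counts, in 3 panels by comparison; filled points passed an adjusted p of 0.05 over all 502 miRNAs, open points did not, and no point is drawn where a group has 0 counts. In PDGF-BB against differentiated cells all 11 estimates are above 0 with only miR-382-5p filled, and in edited against PDGF-BB cells all 10 drawn are below 0 with 8 filled. The choice of members by total counts favours those high after PDGF-BB.

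By pooled level, each of the 11 abundant members was highest in PDGF-BB cells. They were chosen by total counts, of which 240 of 393 lay in PDGF-BB libraries, so the choice itself favours members high there. Over the 34 members with a count, 24 were highest in PDGF-BB, 6 in edited and 4 in differentiated cells. The matching share over all 502 miRNAs was not computed, so these numbers are a description only. Pooling also gives deeper libraries more weight, and edited replicate 2, the deepest, had the lowest cluster level (3.54 CPM). The 23 members other than the 11 abundant ones had 1 to 10 counts each and 108 together. Their sum was 3.58 ± 0.975 CPM for differentiated cells, 5.13 ± 0.790 for PDGF-BB and 2.51 ± 2.86 for edited cells. In this remainder miR-127-3p had 3, 2 and 5 counts in the 3 groups and miR-136-3p 3, 1 and 3. miR-323-3p was counted only in edited libraries, with 2, 1 and 1 counts. All 3 groups lay at or near the floor for most of this remainder. Only miR-369-5p among these arms passed in the fit of all 502 miRNAs, and the lack of a call does not show that an arm was unchanged.

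The mix of members is given by their shares. miR-379-5p made up 25.4% of the cluster's counts without treatment, 17.0% after PDGF-BB and 17.1% after editing. miR-382-5p made up 4.48%, 12.4% and 11.2%, and miR-411-5p 5.97%, 11.3% and 13.2%. The differentiated shares rest on 67 counts and the difference in mix was not tested.

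The rat Meg3 promoter, from which the maternal transcripts of the locus are thought to start, is shown as background to the locus. Any part of it in the levels above was not tested. The RefSeq sequence (GRCr8, chr6:134273806-134274105, plus strand, 250 bases before to 50 after the start of Meg3) is printed 5′ to 3′ with a cAMP response element and a TATA motif in capitals.
Meg3 promoter: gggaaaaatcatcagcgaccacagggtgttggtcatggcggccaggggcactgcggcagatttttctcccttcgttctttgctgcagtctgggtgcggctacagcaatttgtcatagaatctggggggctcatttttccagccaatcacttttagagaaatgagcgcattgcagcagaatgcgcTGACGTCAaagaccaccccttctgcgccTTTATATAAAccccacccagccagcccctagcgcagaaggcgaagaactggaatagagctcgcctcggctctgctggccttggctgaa

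Both strands were searched. The cAMP response element, TGACGTCA, began 66 bases before the start and is held by 1.83% of 33469 RefSeq rat promoters of this length. TATAAA matched on both strands in overlapping positions and is held by 14.2%, and CCAAT matched once and is held by 37.5%. The CArG box bound by serum response factor, with which myocardin acts, and the MEF2 site had no match in this window. They are held by 1.64% and 3.29% of promoters. A match describes letters only, and no binding was measured here.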

How the data were processed

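RNA came from the miRNeasy kit and libraries from the QIAseq small RNA kit, with single reads of 75 nt according to the labels' protocols. The submitters' processing notes name the build Rnor_6.0. Neither an aligner, nor a counting tool, nor any use of molecular identifiers is stated in those sources. The deposited table gives raw counts for each mature rat miRNA, not normalized by the authors, and 0 columns belonged to other samples. Groups came from the titles.

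All 9 libraries were fitted together in R 4.3.3 by the quasi-likelihood method of edgeR 4.0.16, with group means, TMM scaling and edgeR's low-count filter (minimum of 10 counts). P-values were adjusted by Benjamini-Hochberg over every miRNA in the fit, with a threshold of 0.05. The SE was taken from the log2 fold change and the F statistic. A fit of all 502 miRNAs with a count gave values for members under the filter. DESeq2 1.42.0, library totals, the 6 compared libraries alone, a replicate block and leaving out each library were alternatives. Intervals are exact binomial (scipy 1.17.1), and ratios of pooled counts carry an interval of the same kind. Numbers at the smallest total are hypergeometric expectations.

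Members named in full were the 10 with the most counts, ties included, and any in the filtered fit. miR-369-5p, miR-376a-3p, miR-376c-3p, miR-127-3p, miR-136-3p, miR-323-3p and miR-382-3p were added after their values were seen. The members and lists were chosen with earlier results of these data known. RefSeq mature sequences matched 76 of the 78 arms, all but miR-127-5p and miR-136-5p.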

Additional observations from a re-analysis of the deposited data

How the results depend on the processing

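With 501 cluster counts in all, depth limits most members, and calls rest on few counts. miR-379-5p kept its direction and its side of the threshold under library totals, DESeq2, no filter and the replicate block in each comparison. It was under the filter when only the 6 libraries of either comparison with differentiated cells were fitted. Without 1 library its log2 fold change ran from 0.93 to 1.73 (PDGF-BB against differentiated), from −1.69 to −0.61 (edited against differentiated, past the threshold only without edited replicate 1) and from −2.93 to −1.86 (edited against PDGF-BB). The count of all miRNAs past the threshold in PDGF-BB against differentiated cells was 31, against 48 with DESeq2. Without 1 library it ran from 3 (differentiated replicate 3) to 53 (edited replicate 1), and it was 12 to 18 without any other differentiated or PDGF-BB library. In edited against differentiated cells it was 180 (139 to 207 without a library) and in edited against PDGF-BB cells 179 (145 to 198). Library totals moved the median of all tested miRNAs from 0.031 to 0.165, from −0.006 to 0.443 and from −0.022 to 0.296 (log2). The splits of higher and lower calls went from 22 and 9 to 24 and 2, from 98 and 82 to 151 and 40, and from 85 and 94 to 124 and 52. DESeq2 called 24 higher and 24 lower in the first.

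The differentiated mean sum of 9.74 CPM was 8.52 with library totals and 7.07 without miR-379-5p. Without 1 library the mean sums ran from 9.47 to 9.98 CPM for differentiated, from 31.6 to 41.6 for PDGF-BB and from 4.14 to 10.7 for edited cells. Settings for the fit of all miRNAs with a count were chosen after seeing the data. The 10 members lower in edited against PDGF-BB cells were 10 with library totals, 8 with DESeq2, 8 with the replicate block (without miR-369-5p and miR-494-3p), 11 among miRNAs with at least 10 counts and 6 to 14 without a library. The count of members higher in PDGF-BB against differentiated cells, 1, became 2 with library totals and 0 to 4 without a library, being 0 without differentiated replicate 1 or 3 or PDGF-BB replicate 1 or 3, 3 without PDGF-BB replicate 2, and 4 and 2 without edited replicates 1 and 2. The count of members lower in edited against differentiated cells, 1 (miR-369-5p), became 0 with library totals, 2 with DESeq2, 0 with the replicate block (miR-369-5p at −3.02, edgeR adjusted p = 0.0743) and 0 to 3 without a library. It was 3 without edited replicate 1 and 1 without differentiated replicate 3, miR-369-5p not among them, 1 without differentiated replicate 2 (miR-369-5p) and 0 without any of the others. The cause of these moves was not tested. Libraries with equal replicate numbers deviated together, with a correlation over 0.1, in 4 of 9 pairs, so the number is not taken to pair them. With the replicate block the counts of all miRNAs past the threshold were 29, 182 and 181, and miR-379-5p was at 1.14, −1.22 and −2.37.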

Other observations

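Other hairpins of the locus, outside the names used above, added little. Of 14 such arms 3 had a count, namely miR-1193-3p (2 in PDGF-BB replicate 3 and 2 in edited replicate 3), miR-666-3p (1 in PDGF-BB replicate 2) and miR-667-5p (1 in edited replicate 1). RefSeq places further hairpins in the locus, most of them on the minus strand, where of the members only miR-299b and miR-409b lie. The 10 tabulated arms of these, picked after the data were seen, had 0 counts in all 9 libraries.

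Imprinted miRNAs of other loci moved differently. The 5 counted arms of miR-296, miR-298 (Gnas locus) and miR-335 (in Mest), among 9 arms listed with miR-483 (Igf2) and miR-675 (H19), had a summed level of 60.8 ± 1.62 CPM for differentiated, 74.4 ± 7.84 for PDGF-BB and 446 ± 128 for edited cells (SD, n = 3). In the filtered edgeR fit all 5 rose in edited against both differentiated and PDGF-BB cells, where 32.2% and 28% of the 304 tested miRNAs rose. None of the 5 passed in PDGF-BB against differentiated cells, where 7.24% rose.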
